A study of Mus musculus with 8 samples.

Results

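The genes of cholesterol and fatty acid synthesis followed here are 33 genes, chosen by name for their place in the pathway, of 63322 gene names on the arrays of the series. They comprise 7 enzymes that make squalene from acetyl-CoA by way of mevalonate, 9 enzymes that turn squalene into cholesterol, 7 regulators, 5 enzymes that supply or build fatty acids and 5 that lengthen or desaturate them. Gene expression was measured in mouse cells on 8 one-colour Agilent arrays, 2 for each of 4 groups. The first group (L3 and L4) was Lin- BM cells, bone marrow cells depleted of cells with lineage antigens, from female C57Bl6/J mice whose eGFP transgene is driven by the ubiquitin C promoter. The BM-derived hepatocytes were eGFP-positive cells from livers of male hemophilia A mice (F8tm1Kaz, a targeted coagulation factor VIII allele) injured with acetaminophen and then given such Lin- cells, taken 1 month (B1 and B2) or 5 months (G1 and G3) after transplantation. The fourth group was primary hepatocytes (H2 and H4), whose mice are not described in the sources used here. Liver cells were first spun at low speed to separate hepatocytes from other cells, donor cells were then sorted on eGFP, which marks donor cells of any type, and the study stained the sorted cells for albumin.

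Lin- BM cells and 1-month cells shared 1 slide, while primary hepatocytes and 5-month cells shared a second slide of a different array design, so the slide cannot be told apart from the groups in any comparison across the slides. By the study's legends the 2 arrays of a group were 2 experiments, each on cells pooled from 3 mice, so p-values measure the spread between pools and not between single mice. Between 47.7% and 58.6% of probes were well above background per array, and the 75th percentile of signal was 75.5 and 89.5 units on the 1-month arrays against 122 to 193 on the others. Of 8 hepatocyte marker genes tested (albumin and transthyretin among them), 8 were higher at 1 month than in Lin- BM cells. Over all genes 28.8% were called higher and 26.5% lower. Of the 8 markers, 6 were not well above background on either Lin- array, so they entered the test through the 1-month arrays alone. The summed signal of the 8 was 0.329 and 0.346 times the 75th percentile in Lin- BM cells against 3578 and 3618 at 1 month. Of 8 progenitor markers 7 were lower. So were 6 of 7 neutrophil, 4 of 6 lymphocyte and 4 of 5 erythroid markers (1 erythroid marker was higher). Markers of other liver cells were also higher at 1 month. For Kupffer cells these were 5 of 8 (summed signal of the list 1.44 and 4.63 against 11.1 and 42.3). For sinusoidal endothelium they were 4 of 5 (1.48 and 1.53 against 49.9 and 52.2), with 1 lower. Well above background on all 4 arrays were 5 progenitor, 2 neutrophil, 3 lymphocyte, 4 erythroid, 4 Kupffer and 3 sinusoidal markers. The others tested in these lists entered the test through 1 of the 2 groups alone. Stellate cell markers were 2 higher and 2 lower of 6, adipocyte markers 2 higher and 1 lower of 3, housekeeping genes 1 higher and 1 lower of 6, and of 5 dissociation stress genes 0 were called, with 0 at an unadjusted p under 0.05 in limma. The part of these cells in the results that follow was not tested.

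Cholesterol is built from acetyl-CoA in a long chain of steps, most of them in the endoplasmic reticulum, and its genes are switched on together by the transcription factor SREBP-2 when sterols run low. Scap carries the SREBP precursors towards the protease that releases them, and the Insig proteins hold Scap back when sterols are plentiful. Fatty acid synthesis is driven by SREBP-1c and by ChREBP, the products of Srebf1 and Mlxipl, in response to insulin and glucose, and the hepatocyte is the main site of both pathways in the liver.

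Promoters were available in the RefSeq table (build GRCm38.p6, 250 bases before to 50 after each start) for 28 of the 33 genes, in 38 windows, and not for Fads1, Fdft1, Fdps, Scd1 and Sqle. Windows of 5 genes are shown because these genes span the results: an enzyme of each pathway (Hmgcs1 and Fasn), the regulators Insig1 and Thrsp, which rose between the cell types, and Srebf2, which was not called. Capitals mark matches, on either strand, to TCACNCCAC (sterol regulatory element), CCAAT (bound by NF-Y, read as ATTGG on the other strand), CACGTG (E-box) and GGGCGG (Sp1, read as CCGCCC). Hmgcs1 lies at chr13:119690101-119690400 (plus strand), Insig1 at chr5:28071162-28071461 (plus), Fasn at chr11:120824498-120824797 (minus), Thrsp at chr7:97417501-97417800 (minus) and Srebf2 at chr15:82147019-82147318 (plus).
Hmgcs1: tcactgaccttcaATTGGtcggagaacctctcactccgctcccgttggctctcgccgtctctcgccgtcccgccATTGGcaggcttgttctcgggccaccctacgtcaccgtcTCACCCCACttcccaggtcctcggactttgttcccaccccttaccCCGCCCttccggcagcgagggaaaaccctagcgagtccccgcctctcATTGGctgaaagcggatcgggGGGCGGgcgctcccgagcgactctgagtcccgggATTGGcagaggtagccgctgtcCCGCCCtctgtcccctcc
Insig1: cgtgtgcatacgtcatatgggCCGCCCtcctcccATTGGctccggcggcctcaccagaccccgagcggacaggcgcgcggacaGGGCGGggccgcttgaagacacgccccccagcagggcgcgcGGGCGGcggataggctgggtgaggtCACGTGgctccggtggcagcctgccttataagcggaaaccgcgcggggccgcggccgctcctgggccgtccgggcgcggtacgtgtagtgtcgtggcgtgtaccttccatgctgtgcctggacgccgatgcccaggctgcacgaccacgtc
Fasn: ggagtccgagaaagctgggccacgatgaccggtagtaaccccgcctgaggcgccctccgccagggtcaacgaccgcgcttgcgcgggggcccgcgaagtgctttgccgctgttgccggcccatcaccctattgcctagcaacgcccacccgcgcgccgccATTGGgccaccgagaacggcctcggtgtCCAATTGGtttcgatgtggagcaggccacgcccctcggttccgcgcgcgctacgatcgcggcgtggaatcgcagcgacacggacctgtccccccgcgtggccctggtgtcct
Thrsp: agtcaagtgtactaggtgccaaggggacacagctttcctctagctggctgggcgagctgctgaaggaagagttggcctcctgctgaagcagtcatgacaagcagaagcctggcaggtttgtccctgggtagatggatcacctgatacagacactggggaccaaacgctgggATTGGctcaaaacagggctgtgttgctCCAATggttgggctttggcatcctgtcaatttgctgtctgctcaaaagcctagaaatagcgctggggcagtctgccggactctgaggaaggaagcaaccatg
Srebf2: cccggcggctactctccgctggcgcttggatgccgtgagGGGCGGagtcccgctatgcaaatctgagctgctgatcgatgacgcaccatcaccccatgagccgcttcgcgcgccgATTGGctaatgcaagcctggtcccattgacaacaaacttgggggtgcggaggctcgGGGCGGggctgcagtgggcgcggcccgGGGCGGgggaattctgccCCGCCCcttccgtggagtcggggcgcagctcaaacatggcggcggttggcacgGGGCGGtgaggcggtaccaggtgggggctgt

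The Hmgcs1 window held 1 sterol regulatory element, 4 NF-Y and 3 Sp1 matches, and that of Insig1 held 1 NF-Y, 1 E-box and 3 Sp1 matches. Fasn had 3 NF-Y matches, 2 of which overlap on opposite strands. Thrsp had 2 NF-Y matches only, and Srebf2 had 1 NF-Y and 5 Sp1 matches. CCAAT was found in 25 of the 38 windows (65.8%) against 37.4% of 32851 promoters, GGGCGG in 25 (65.8% against 35.7%), CACGTG in 8 (21.1% against 7.15%) and TCACNCCAC in 2 (5.26% against 1.24%), those of Hmgcs1 and Mlxipl. These are exact matches of letters, so a site that differs by a single letter is not counted, and binding was not measured.

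At 1 month the BM-derived hepatocytes were compared with Lin- BM cells, the kind transplanted, to see how far the pathway differed between them. The study reported that some donor-derived cells had fused with recipient cells, and the part of fusion in these values was not tested. The 16 cholesterol enzymes, from Hmgcs1 (HMG-CoA synthase) to Dhcr7 (the reductase of the final step), were all called higher. Of 32 genes tested 30 were called higher and 0 lower, with a median log2 difference of 3.72, while 28.8% of 28536 genes were called higher and 26.5% lower with a median of 0.07. A gene was called at a Benjamini-Hochberg adjusted p under 0.05 in limma with a log2 difference beyond 0.6 in size. With the methods' t-test after the same adjustment 13 of the 30 calls remained, and those lost included Idi1, Cyp51, Dhcr7, Insig1, Fasn and Me1. Levels are log2 signals relative to the 75th percentile of each array, n was 2 arrays per group, and in bulk RNA fewer cells of a type and less RNA per cell cannot be told apart.

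The 7 genes of the mevalonate steps rose, with log2 differences from 3.33 for Mvd (mevalonate diphosphate decarboxylase) to 5.09 for Hmgcs1, and a median of 4.19. Idi1, the isomerase that makes dimethylallyl diphosphate, rose by 4.33, Fdps, which makes farnesyl diphosphate, by 4.19, and Fdft1, the squalene synthase, by 4.49. The kinases Mvk and Pmvk rose by 3.59 and 3.37.

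The 9 genes of the sterol steps rose as well, with a median of 3.64 and a range from 3.08 for Ebp, the sterol isomerase, to 6.27 for Tm7sf2, a sterol reductase. Tm7sf2 stood at 0.57 and 0.46 in L3 and L4 and at 6.69 and 6.88 in B1 and B2 (SE of the difference 0.26, adjusted p = 0.000183 in limma). Sc5d, the sterol desaturase, stood at 2.24 and 2.07 against 7.51 and 7.24, a difference of 5.22 (SE 0.27, adjusted p = 0.000321). For both genes the arrays of a group lay close together and the groups were far apart. Squalene epoxidase (Sqle) rose by 3.14, lanosterol synthase (Lss) by 3.63 and the demethylase Cyp51 by 3.80.

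Among the 7 regulators, 6 rose and Srebf2 did not pass the test. Thrsp, a small lipogenic regulator of liver and fat, was not well above background on either Lin- array (-6.68 and -5.62). It stood at 5.17 and 4.10 at 1 month, so the signal was at least 561-fold higher, and it entered the test through the 1-month arrays alone. Mlxipl, which encodes ChREBP, stood at -3.05 and -4.22 in Lin- BM cells and at 5.46 and 5.60 at 1 month, a difference of 9.16 (SE 0.45, adjusted p = 0.000278). For both genes every 1-month array lay far above every Lin- array.

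Insig1 and Insig2, the sterol sensors that hold Scap in the endoplasmic reticulum, rose by 5.79 (SE 0.43, adjusted p = 0.000812) and 5.45 (SE 0.28, adjusted p = 0.000307). Insig1 stood at -2.72 and -3.78 in Lin- BM cells and at 2.67 and 2.41 at 1 month. Insig2 stood at 1.42 and 1.06 against 6.64 and 6.75. The rise of Scap and Srebf1 was smaller. Scap stood at 4.74 and 4.97 against 6.39 and 6.17 (difference 1.43, SE 0.27, adjusted p = 0.0111), and Srebf1 at 4.65 and 5.07 against 6.66 and 6.40 (1.67, SE 0.30, adjusted p = 0.00906). Neither gene overlapped between the groups, but the same held for 82.1% of all genes. Both calls were lost when B1 was left out.

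Srebf2, which encodes SREBP-2, was the only gene tested with a lower mean at 1 month. It stood at 1.28 and 1.00 in L3 and L4 and at 0.96 and 0.53 in B1 and B2, a difference of -0.40 (SE 0.30, adjusted p = 0.304) with groups just apart. Its other probe, which was not well above background on B2, differed by -2.31. The gene of the regulator was thus not called in limma (95% interval -1.17 to 0.38), while the 16 enzymes of the cholesterol pathway were. With the methods' t-test after Benjamini-Hochberg adjustment, Idi1, Mvd, Mvk, Pmvk, Sqle, Lss, Cyp51 and Dhcr7 among these enzymes lost their calls.

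**Figure D1:**
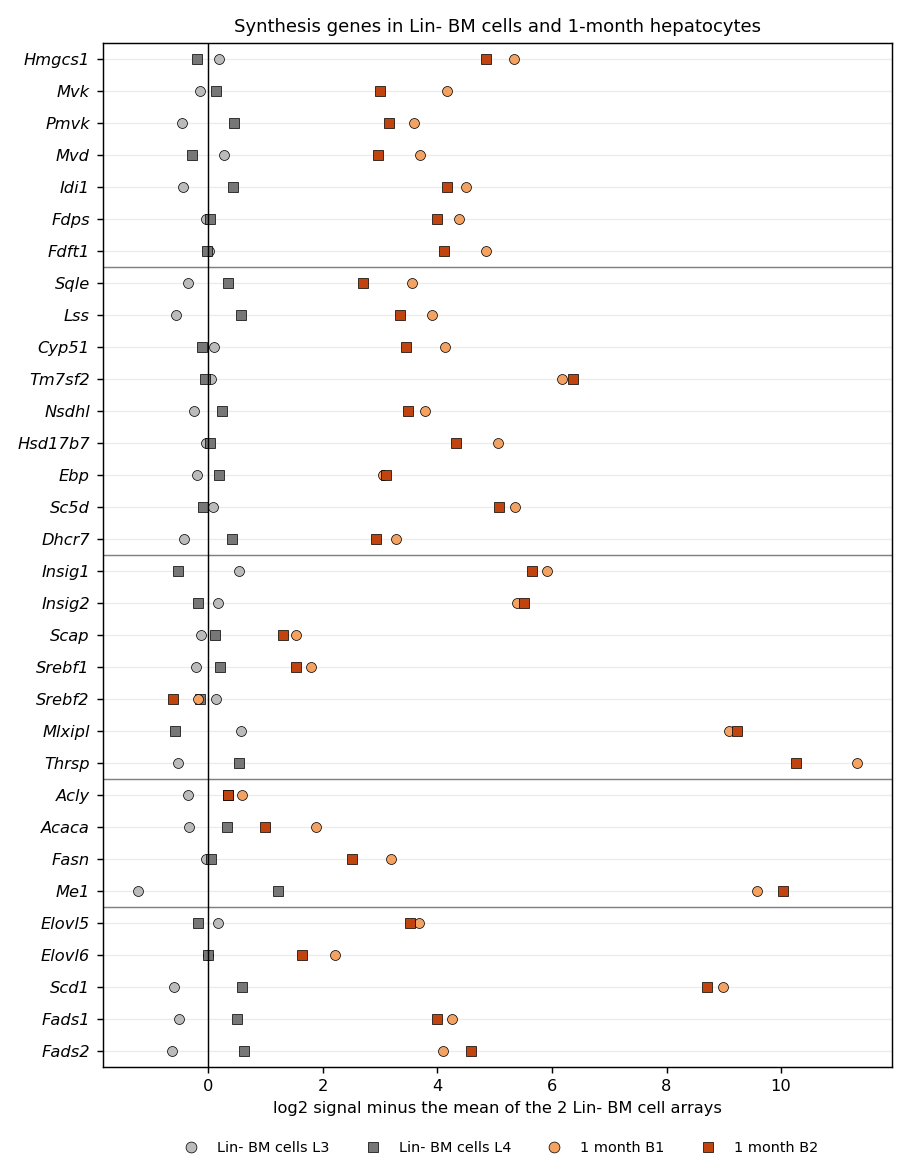
Each point is 1 array of the first slide, with genes along one axis grouped by role and the log2 level minus the mean of the Lin- BM cells on the other. The mean of the 1-month arrays lies above that of the Lin- arrays for 31 of 32 genes, and Srebf2 is the gene with a negative difference (-0.40).

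In fatty acid synthesis 3 of 4 genes tested were called higher. Me1, the malic enzyme that supplies NADPH, stood at -4.73 and -2.30 in L3 and L4, well above background on 1 of the 2, and at 6.06 and 6.52 at 1 month, a difference of 9.80 (SE 0.83, adjusted p = 0.00114). Me1 thus entered the test through the 1-month arrays alone, and its second probe was not well above background on either Lin- array. Fasn, the fatty acid synthase, rose by 2.85 (SE 0.34, adjusted p = 0.00278). Acly, which makes cytosolic acetyl-CoA from citrate, stood at 0.47 and 1.15 against 1.41 and 1.16 and was not called (0.47, SE 0.34, adjusted p = 0.286). Acaca, the cytosolic acetyl-CoA carboxylase, was called at 1.44 (SE 0.44, adjusted p = 0.0422), but its 4 probes ran from 0.02 to 1.44 and the call was lost without L3, without L4, without B1 and in the mean over probes. Acacb, the carboxylase of mitochondria, was not tested because its probe was well above background on B2 only.

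The 5 genes of elongation and desaturation rose, with a median of 4.12. Scd1, the stearoyl-CoA desaturase, stood at -1.81 and -0.62 in Lin- BM cells and at 7.77 and 7.50 at 1 month, a difference of 8.84 (SE 0.46, adjusted p = 0.000324). The fatty acid desaturases Fads1 and Fads2 rose by 4.12 and 4.35, the elongase Elovl5 by 3.60 and Elovl6, which lengthens palmitate, by 1.93. For the 17 genes with more than 1 probe on this slide, all probes of a gene differed in the same direction, whereas on the second slide this held for 11 of 15 genes (not for Acaca, Acly, Fdft1 and Nsdhl).

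Other genes of lipid metabolism were compared as well. Of 44 such genes, 42 were tested, 27 were called higher and 7 lower, with a median of 2.33, beside 28.8% higher and 26.5% lower over all genes. Large rises were seen in the elongases Elovl2 (at least 1182-fold) and Elovl3 (at least 427-fold, with 2.81 in B1 and 5.67 in B2). Neither was well above background on either Lin- array, so both entered the test through the 1-month arrays alone. Elovl7, an elongase, was at least 10.4-fold lower at 1 month, where it was not well above background. It entered the test through the Lin- arrays alone. Scd2, the desaturase paralogue of Scd1, fell by 4.64 from 4.06 and 4.28 in Lin- BM cells to -0.57 and -0.37 (SE 0.27, adjusted p = 0.000417 in limma). Mlxip, the paralogue of Mlxipl, fell by 3.60 from 1.48 and 0.98 to -2.49 and -2.25 (SE 0.31, adjusted p = 0.0012). In these 2 pairs of paralogues 1 gene rose and the other fell.

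The 5-month cells were compared with primary hepatocytes to see whether the pathway ran at the level of the resident cell. Of 33 genes tested 0 were called, against 0.552% of 19929 genes (110 genes, 0.366% higher and 0.186% lower). At an unadjusted p under 0.05 there were 3 genes of the pathway and 2818 of all. The median log2 difference was 0.50 over the pathway and 0.04 over all genes, and 26 of the 33 differences were positive. The 95% intervals of the single genes ran from -2.56 to 3.32 in all, so that a change of several fold in either direction could not be told from none for many of them. The groups did not overlap for 12 of the 33 genes, and for 48% of all genes.

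Me1 had the largest difference, 1.27 (SE 0.20, 95% interval 0.73 to 1.81, adjusted p = 0.118). It stood at 5.68 and 5.54 in H2 and H4 and at 6.86 and 6.91 in G1 and G3, and its other probes differed by 0.40 and 2.40. Both 5-month arrays lay above both primary arrays for Me1.

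Cyp51 stood at 2.65 and 1.08 in H2 and H4 and at 2.86 and 2.80 at 5 months (difference 0.96, 95% interval -0.55 to 2.48). Hmgcs1 stood at 9.08 and 7.18 against 9.01 and 8.96 (0.86, -0.95 to 2.66). Scd1 stood at 8.20 and 7.30 against 8.48 and 8.80 (0.89, -0.13 to 1.90). In these genes H4 was the lowest array, and the groups overlapped for Hmgcs1 but not for Cyp51 and Scd1. Sc5d, with 7.88 and 6.96 against 8.28 and 8.20 (0.82, -0.17 to 1.80), did not overlap either.

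Of the regulators, Srebf1 stood at 2.86 and 2.52 in H2 and H4 and at 3.23 and 3.40 at 5 months (0.63, adjusted p = 0.353). Mlxipl stood at 6.56 and 6.44 against 7.36 and 6.82 (0.59), and Scap at 7.04 and 7.04 against 7.18 and 7.32 (0.21). These 3 genes did not overlap between the groups, but none passed the test. Insig1 stood at 3.91 and 2.04 against 3.09 and 3.15 (0.14), Insig2 at 6.53 and 4.54 against 6.08 and 6.31 (0.66) and Srebf2 at 1.72 and 1.03 against 1.65 and 1.69 (0.29). Thrsp ran the other way, with 6.44 in H2, 8.76 in H4 and 7.20 and 7.23 at 5 months (-0.39). For Insig1, Insig2, Srebf2 and Thrsp both 5-month values lay between the 2 primary arrays. Acacb, whose spot on H4 was left out as an outlier, stood at 7.71 in H2 alone and 0.74 higher at 5 months (adjusted p = 0.381).

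**Figure D2:**
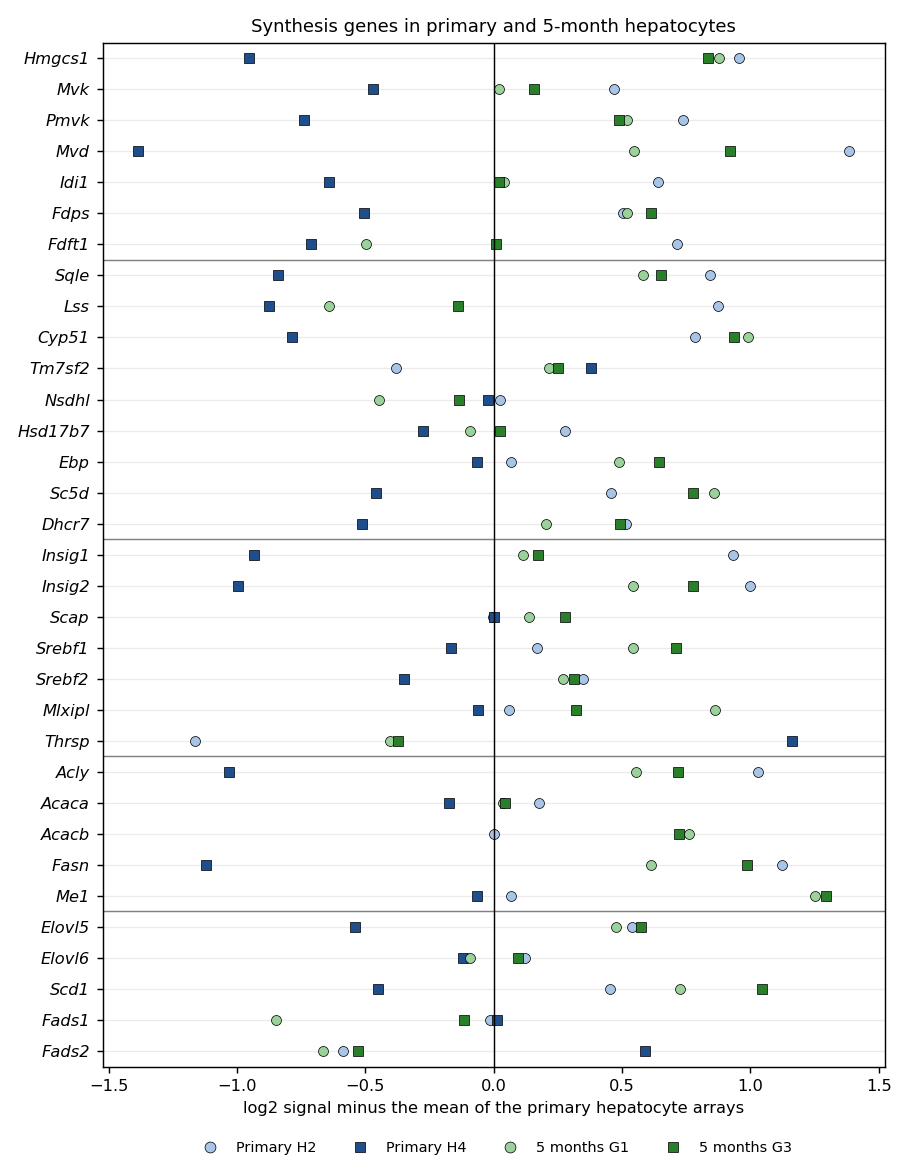
Each point is 1 array of the second slide, with genes along one axis grouped by role and the log2 level minus the mean of the primary hepatocytes on the other. The 2 primary arrays lie on either side of both 5-month arrays for 19 of 32 genes, and H4 is the lowest of the 4 arrays for 26.

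The result of this comparison turned on which primary array was used. Without H2, 8 genes were called higher (Acly, Cyp51, Fasn, Hmgcs1, Insig2, Me1, Mvd and Sqle) and Thrsp lower, with a median of 0.79. Without H4, 0 were called, the median was -0.12 and 21 of 33 differences were negative. The same removals called 6.77% and 6.18% of all genes. In either fit the lone primary array is assumed to vary like the 5-month arrays.

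The 2 primary arrays differed in the pathway more than other genes did. Among 32 genes well above background on both, 27 were lower in H4 than in H2, with a median difference of -0.93, and 15 (46.9%) were lower by more than 1 on the log2 scale. Over 19064 genes the median was 0.04 and 5.64% were lower by more than 1. The 7 mevalonate genes were all lower in H4 (median -1.43), as were 8 of 9 sterol genes (-0.92) and 4 of 4 genes of fatty acid synthesis (-1.21), while regulators (5 of 7, -0.34) and elongation and desaturation (3 of 5, -0.24) were mixed. These shares are a description of 2 arrays, with no test, since genes are not replicates.

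The largest falls from H2 to H4 were in Mvd (3.79 to 1.02), Fasn (3.19 to 0.95) and Acly (a difference of -2.06), followed by Insig2 (-1.99), Hmgcs1 (-1.91) and Insig1 (-1.86). Lss, Sqle and Cyp51 differed by -1.75, -1.68 and -1.57. Thrsp (2.32), Fads2 (1.18, from 3.68 to 4.86) and Tm7sf2 (0.76) were higher in H4. Enzymes of both pathways and both Insig genes were thus low on the same array, whereas Thrsp was high on it. Beside this, the summed signal of the hepatocyte markers was 8487 in H2 and 9162 in H4, that of the Kupffer cell markers 24.0 and 50.6, of the stellate cell markers 8.98 and 46.6, and of the dissociation stress genes 22.2 and 40.5. The adipocyte markers (2 measured of 6) summed to 1.98 and 6.29, the neutrophil markers to 14.2 and 25.4 and the erythroid markers to 37.8 and 55.6. Their part in the difference was not tested.

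The pairs of the other groups lay closer together in the pathway. Between G1 and G3 the median absolute difference was 0.14 and 0 of 33 genes differed by more than 1, against 0.22 and 2.61% over all genes. Between B1 and B2 it was 0.41 against 0.27 over all genes, with 26 of 32 lower in B2 (median -0.35). The stress genes summed to 192 in B1 and 5.997 in B2. Between L3 and L4 it was 0.40 against 0.37, with 12 of 30 lower in L4. The 5-month pair was therefore the tightest and the primary pair the widest for these genes.

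**Figure D3:**
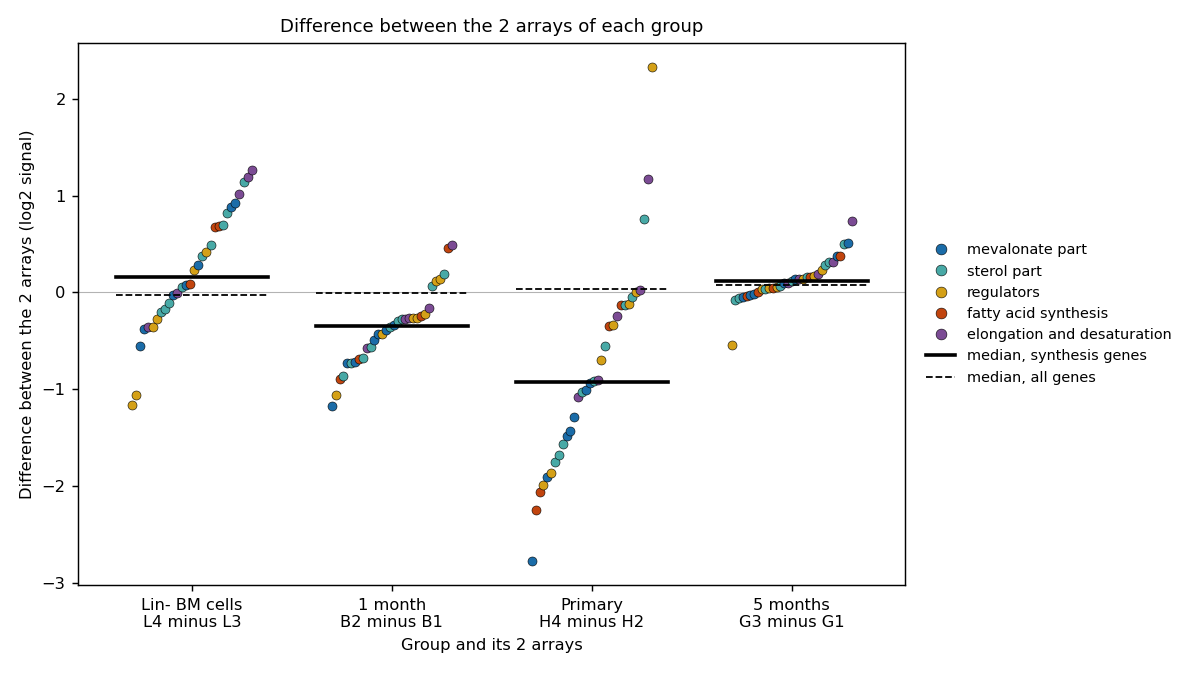
Each point is 1 gene of the pathway, coloured by role, and shows the log2 level of the second array minus the first within each group, with a solid line at the median of the pathway and a dashed line at the median of all genes. The primary hepatocytes stand out with a median of -0.93, and the 5-month points lie within 1 of zero.

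Beside the comparison of 5 months with primary hepatocytes, the Kupffer cell markers summed to 24.0 and 50.6 in the primary arrays. At 5 months they summed to 97.8 and 102, with 0 of 8 called and 3 at an unadjusted p under 0.05 in limma. All 8 were higher at 5 months without overlap between the groups, while 48% of all genes did not overlap. Of the 5 stress genes, whose median difference was 2.67, 1 was called (Fos, 3.15, adjusted p = 0.0374) and 4 had an unadjusted p under 0.05. The hepatocyte markers had 0 of 9 called (1 at an unadjusted p under 0.05), and 0 were called among the markers of the other types tested (4 progenitor, 5 neutrophil, 4 erythroid, 4 lymphocyte, 6 stellate, 5 sinusoidal, 2 adipocyte) and the 7 housekeeping genes, with 0 to 3 per list at an unadjusted p under 0.05. Their part in the values was not tested. Of the 44 other lipid genes, 41 were tested and 0 called, with 8 at an unadjusted p under 0.05 and a median of 0.32.

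For 18 of the 33 genes a probe of the same sequence was on both array designs, so that all 4 groups could be set side by side on levels relative to the 75th percentile of the shared probes. Against Lin- BM cells, 17 were called higher at 5 months (29.3% of 9260 genes) and 16 in primary hepatocytes (29.3%). The medians were 3.72 and 3.12, against -0.30 and -0.29 over all genes. These comparisons share the Lin- arrays with each other and with the 1-month comparison, in which 17 of the 18 were called. One of those 17, Fdft1, was dim on all arrays of both groups there, so that its call at 1 month sets background against background.

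Scd1 had the largest difference in each of the 3, 9.65 at 5 months (SE 0.43, adjusted p = 5.83e-06), 8.72 in primary hepatocytes and 8.87 at 1 month. Tm7sf2 followed with 6.84, 6.56 and 6.30, and Insig1 with 6.17, 5.98 and 5.81. Srebf2 was not called in any of them (0.32, -0.01 and -0.37). Mvd was not called in primary hepatocytes (1.68, adjusted p = 0.114), where its arrays overlapped Lin- BM cells. The shared probe of Fdft1 was dim, with no array of Lin- BM cells or 1-month cells clear of background, and its bound was at least 6.19-fold higher for 5 months and at least 4.22-fold higher for primary hepatocytes.

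**Figure D4:**
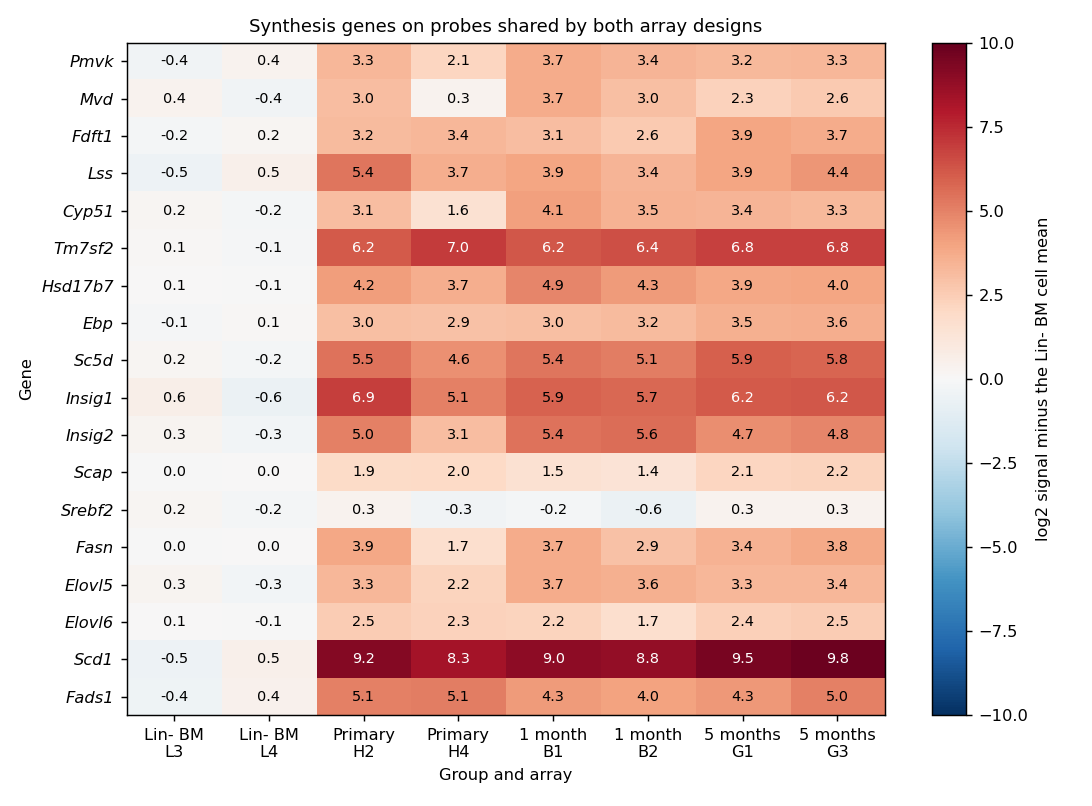
The heat map shows 18 genes with a probe on both designs by 8 arrays, coloured by the log2 level minus the mean of the Lin- BM cells. The mean of the Lin- arrays is the lowest of the 4 groups for 17 genes, and Srebf2 is the gene with the smallest differences (0.32, -0.01 and -0.37).

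Among the hepatocyte groups, 0 of the 18 genes were called between 1 month and primary hepatocytes (16.7% of all genes were) or between 5 months and 1 month (17.1%). At an unadjusted p under 0.05 there were 4 and 2 genes in limma, beside 2997 and 3220 of all 9260 genes. Cyp51 had the lowest adjusted p at 1 month against primary hepatocytes, 0.0933 with a difference of 1.50 (SE 0.51). Scap was nearest to a call at 5 months against 1 month, with 0.74 (SE 0.20, adjusted p = 0.052), and the dim probe of Fdft1 was at least 1.94-fold higher at 5 months (adjusted p = 0.0583). The medians were 0.14 (0.17 over all genes) and 0.49 (-0.14).

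Lin- BM cells had the lowest mean of the 4 groups in 17 of the 18 genes. The highest mean was at 5 months for 10 genes, at 1 month for 6 and in primary hepatocytes for 2. The order of the hepatocyte groups was not settled by spread. The primary arrays overlapped those of 1 month in 8 genes and those of 5 months in 9, while 1 and 5 months overlapped in 1. Over all genes, 64.6% did not overlap in the first of these comparisons, 48.3% in the second and 71.7% in the last. Without H2 the median difference of the 18 genes at 1 month from primary hepatocytes was 0.62, with 11 positive and 7 negative. Without H4 it was -0.25, with 8 positive and 10 negative. Over all genes the medians were 0.16 and 0.17.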

How the data were processed

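Total RNA of 8 samples was labelled with Cy3 and hybridised to 2 Agilent designs of 61307 and 55681 probes, of which 0 names and 13991 sequences were shared. By the study's legends, L3 and L4 were the control, H2 and H4 the primary hepatocytes, and B1, B2 and G1, G3 the cells of 1 and 5 months. The authors deposited scanner output of Feature Extraction 11.5.1.1 (processed signal intensity, already background-corrected) and a table of log2 values made with a 75th percentile shift in GeneSpring GX. The genome build used for the probes is not given in the sources used here.

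From the deposited intensity, log2 of the processed signal minus the 75th percentile of each array was computed, control probes and outlier spots (6 to 152 per array) were left out, and 0 spots were saturated. A gene was represented by its probe of highest mean among those with both arrays of a group clear of background by the scanner's test. Groups were compared with limma 3.58.1 (lmFit, eBayes) in R 4.3.3 within each slide, and over shared probe sequences for all 8 arrays. Calls needed an adjusted p under 0.05 (Benjamini-Hochberg over all genes of the fit) and a log2 difference beyond 0.6, the limit of change that the study used. "At least" folds set the brighter group against the lowest signal well above background on the dim arrays. The deposited log2 values served as an alternative. The pipeline was run on simulated data, and the check it had to pass used a spread far below that of these arrays. That check does not give the recovery at the spread of these data.

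The genes followed, the 44 other lipid genes, the 11 marker lists (76 genes, hepatocyte, Lin- BM progenitor, Kupffer, neutrophil, erythroid, lymphocyte, stellate, sinusoidal, adipocyte, dissociation stress, housekeeping) and the motifs were chosen with earlier results of these data known. Array values are given for the regulators, the 8 largest differences at 1 month, the 5 largest at 5 months and any gene opposite to its group, and of the other lipid genes the 3 largest rises and falls called per slide are named, except 1 that is not reported here. Only 2 arrays per group limit the precision.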

Additional observations from a re-analysis of the deposited data

How the results depend on the processing

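No paired analysis was possible because no groups compared share more than 1 replicate number. The rise of the pathway at 1 month kept 27 to 30 calls when 1 array was left out, and Acaca was the gene most often lost. Among the 18 genes with shared probes it had 17 calls, in 1 fit of 8 arrays and with the slide as a block. With the methods' t-test after Benjamini-Hochberg adjustment, 17 of the 30 calls on the slide were lost and 13 remained, and primary hepatocytes against Lin- BM cells had 9 calls in place of 16. At 5 months against primary hepatocytes, genes called higher ranged from 0 to 8 and genes called lower from 0 to 1 when 1 array was left out, with 2 higher by the methods' t-test (Me1, and Acacb with 1 primary array, whose spread comes from G1 and G3 alone) and 1 with normexp (Me1). Without H4 the differences of Hmgcs1 (-0.10), Insig1 (-0.79), Insig2 (-0.34), Srebf2 (-0.056) and Thrsp (0.77) turned, the other end of each range being 1.81, 1.07, 1.66, 0.64 and -1.55. At 1 month against primary hepatocytes, the median was 0.62 without H2 and -0.25 without H4. Without H2, Mvd, Insig2 and Cyp51 differed by 3.05, 2.41 and 2.27, with 11 of the 18 genes positive and 7 negative. Lower calls at 1 month against primary hepatocytes were 1 by the methods' t-test and 3 with normexp (Elovl6, Fads1 and Scap). The median of that comparison turned to -0.13 with the percentile over all probes and to -0.14 in the authors' values. At 5 months against 1 month, 1 gene was called higher with probes above background on all arrays (Scap). By the methods' t-test, whose p-values are unadjusted, 3 were called higher and 1 lower. Calls numbered 2 with the percentile over all probes, 4 with normexp, 1 with quantile normalization and 2 in the authors' values. Fdft1 turned to -0.34 with normexp. Over all genes the reported fits called 0.552% at 5 months against primary hepatocytes, 16.7% at 1 month against them and 17.1% at 5 months against 1 month. The shares of all genes called under the other processing settings are not given here. Apart from settings that use fewer genes or arrays by construction, the cause of these changes was not tested. Of the other values 394 were labelled unchanged, 15 gained a call, 14 lost it and 2 medians moved. A gene was labelled unchanged if it kept direction and call. A median was so labelled if it moved by less than the pooled spread of the arrays, even where its sign turned. Of the counts of calls, 142 stayed at or near the reported count and 18 moved. With 2 arrays a group, and with dim probes such as those of Fdft1 and Acacb, small differences could not be told from none.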

Other observations

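Genes next to the pathway that the rules for naming did not pick were chosen here after their values were seen. At 1 month against Lin- BM cells, Dgat2, which makes triglyceride, was higher by 8.47 on the log2 scale (SE 0.38, adjusted p = 0.00022 in limma), and Nr1h3, the oxysterol receptor LXR alpha, by 6.69 (SE 0.56, adjusted p = 0.00111). The sterol enzyme Msmo1 was higher by 5.07 (SE 0.32, adjusted p = 0.000521). Soat2, the cholesterol esterifying enzyme of hepatocytes and intestine, was higher by 2.79 (SE 0.39, adjusted p = 0.00469), while its paralogue Soat1 fell by 3.18, from 0.82 and 0.85 in Lin- BM cells to -2.42 and -2.28.

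At 5 months, Elovl3, an elongase of very long chain fatty acids, stood at 7.30 and 7.17 against 4.28 and 2.68 in primary hepatocytes, a difference of 3.75 (SE 0.58, adjusted p = 0.113 in limma), so that it did not pass the test although its arrays lay far apart. At 1 month it stood at 2.81 in B1 and 5.67 in B2, a wide pair. Fads1 and Fads2 had differences of -0.48 and -0.60 at 5 months against primary hepatocytes, opposite in sign to most of the pathway, and neither was called.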
